A study of Homo sapiens with 6 samples.

Results

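The 37 genes described here encode components of PI3K, AKT, SGK and mTOR signaling, and they were taken by gene symbol from the 23062 identifiers listed for DU145 cells. All 37 symbols were found in each library. DU145 is a human androgen-independent prostate cancer cell line with the genotype labelled WT. RNA was sequenced from 3 control libraries, whose cells were kept in medium for 48 h, and from 3 libraries of cells treated for 48 h with taraxasterol (TAX), a plant triterpenoid, at 56 µM, the dose named as the IC50. TAX was dissolved in DMSO, and it is not stated whether the control cells received DMSO, so the solvent and TAX cannot be told apart. The labels number the replicates without saying that they came from separate cultures, so the p-values measure the spread between these libraries only. The comparison asks whether the mRNA levels of this pathway differed between TAX-treated and control cells.

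Class I PI3K is a dimer of a catalytic subunit and a regulatory subunit that is recruited to activated receptors, often through the IRS adaptors. It makes the membrane lipid PIP3, to which AKT binds and where PDPK1 phosphorylates it. The kinase mTOR works in mTORC1 with RPTOR and in mTORC2 with RICTOR. mTORC2 phosphorylates AKT and the SGK kinases, while AKT inhibits the TSC complex and GSK3 and thereby permits RHEB to activate mTORC1. mTORC1 then phosphorylates the S6 kinases and the 4E-BP proteins, which hold back the cap-binding protein eIF4E. Most of this regulation runs through phosphorylation, which mRNA levels do not record. The pathway is often hyperactive in prostate cancer.

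The deposited values were taken as FPKM, fragments scaled to transcript length and to the mapped fragments of the library, and they sum to between 322483 and 363724 per library. Read totals are unknown, and between 3997 and 4798 identifiers were listed at 0. The defining epithelial markers KRT8, KRT18, KRT19, EPCAM and CDH1 were expressed in every library, with a summed level of 428 to 545 FPKM in control and 555 to 606 FPKM in TAX-treated cells. In KRT18, KRT19 and EPCAM every TAX value lay above every control value, as in 14.6% of all genes tested. KRT8 was at 126 to 170 and 151 to 173 FPKM and CDH1 at 40.7 to 66.8 and 42.8 to 50.8 FPKM in control and TAX libraries. Of the other cell markers, PTPRC, CD3E, PECAM1, VWF, CDH5, DCN, LUM and COL1A2 were at or near 0, while CD14 was at 0.178 to 0.412 FPKM in control and 0.21 to 0.419 FPKM in TAX libraries and COL1A1 at 1.89 to 2.08 and 1.42 to 1.48 FPKM. The part of the keratin, EPCAM or COL1A1 levels in any result was not tested. Control replicate 3 held the lowest of the 6 values for 58% of the 12359 genes tested and for 23 of the 36 tested members (63.9%). Control replicate 2 stood apart for a few members, which are given with and without it.

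In this comparison 0 of the 36 tested members had an adjusted p under 0.05 (limma on log2(FPKM + 1), Benjamini-Hochberg over all genes tested), where 0.477% of all genes did. An unadjusted p under 0.05 was found for 1 member, PIK3R3, which was lower, or 2.78% of the members against 10.1% of all genes. By direction, the background was 7.73% of genes higher and 2.41% lower at this threshold. In 2 members, RPS6KB2 and GSK3B, every TAX value lay above every control value, against 14.6% of all genes, and in 1 member, PIK3R3, every TAX value lay below, against 3.34%. The log2 fold change was above 0 for 24 members and below 0 for 12, so that 66.7% were above 0 beside 69.1% of all genes. The median log2 fold change of the members was 0.036 and that of all genes 0.054. When each library was centred on its median, 13 members were above 0 and 23 below, and after quantile normalization 17 and 19. That was 36.1% and 47.2% of the members above 0, beside 48.7% and 51.6% of all genes. Without control replicate 3, 14 members were above 0 and 22 below (38.9% above 0, beside 52.1% of all genes), so the sign of the small differences depended on the scaling and on that library. The adjusted p of the 36 members ranged from 0.411 to 0.992.

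**Figure D1:**
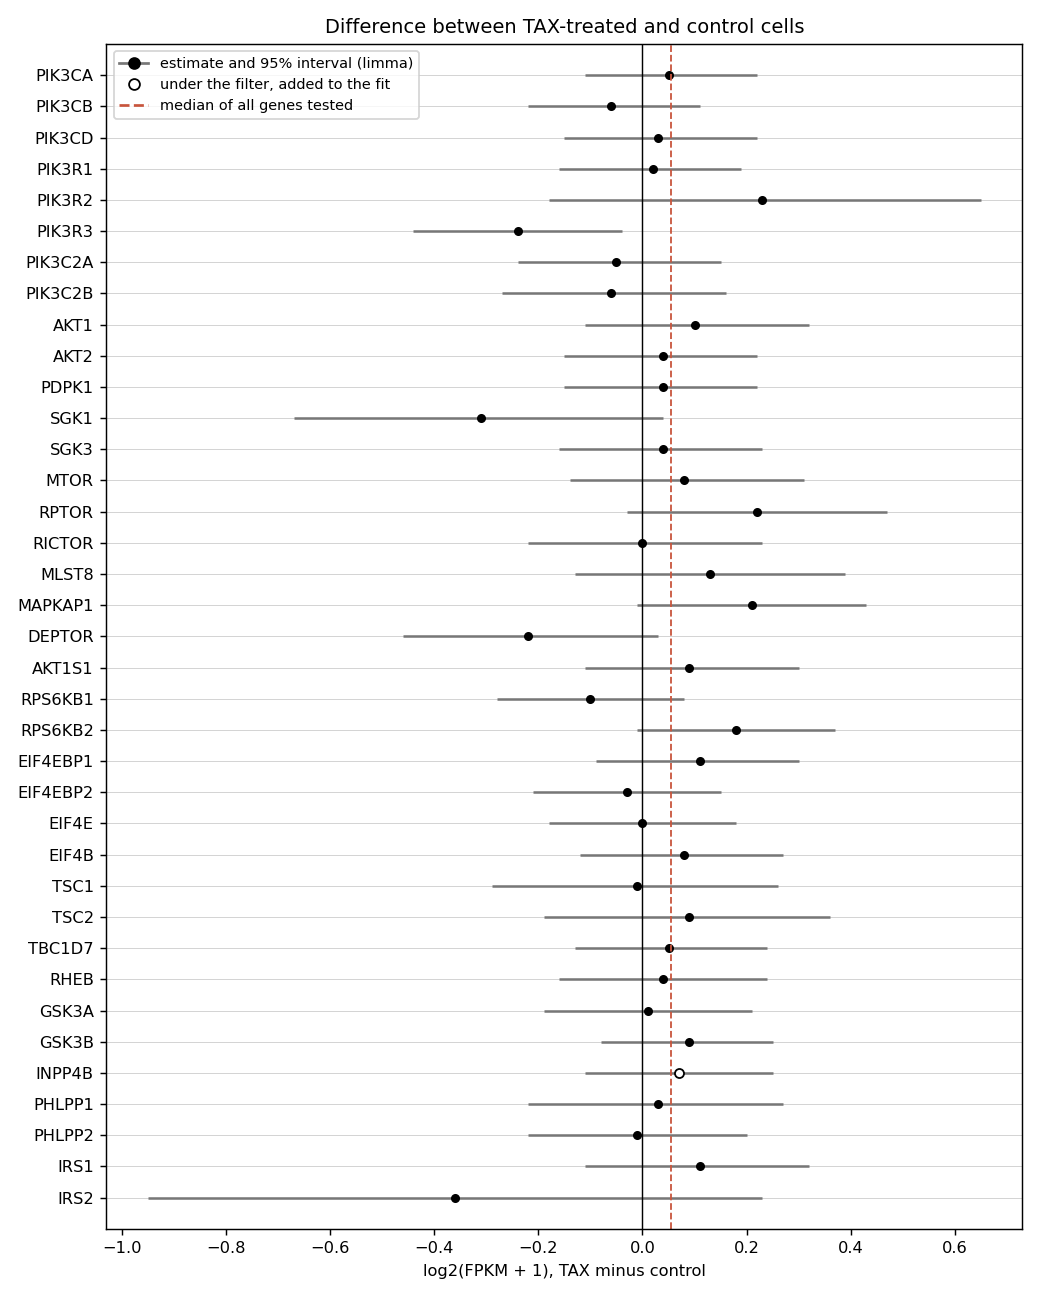
Difference in log2(FPKM + 1) between TAX-treated and control cells for the 37 genes, with the 95% interval from limma (3 libraries per group). The open point is INPP4B, which was under the filter on low values, and the dashed line is the median of all genes tested. Of the 36 intervals of tested members, PIK3R3 alone does not reach 0.

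The differences were small for most of the pathway. The TAX mean lay within 10% of the control mean for 28 of the 36 tested members (77.8%), and within 20% for 33 of them, compared with 66.1% and 91.3% of all genes. Intervals here and below are folds of FPKM + 1, a scale that understates changes of low genes. On it the 95% interval of the difference stayed within 1.5-fold either way for 33 members (91.7%), against 96% of all genes. The exceptions were PIK3R2, SGK1 and IRS2, the same genes in which control replicate 2 lay far from the other controls. An interval that holds 0 does not show that a gene had equal levels in both groups. In bulk RNA, fewer cells of a type and less RNA per cell cannot be told apart.

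**Figure D2:**
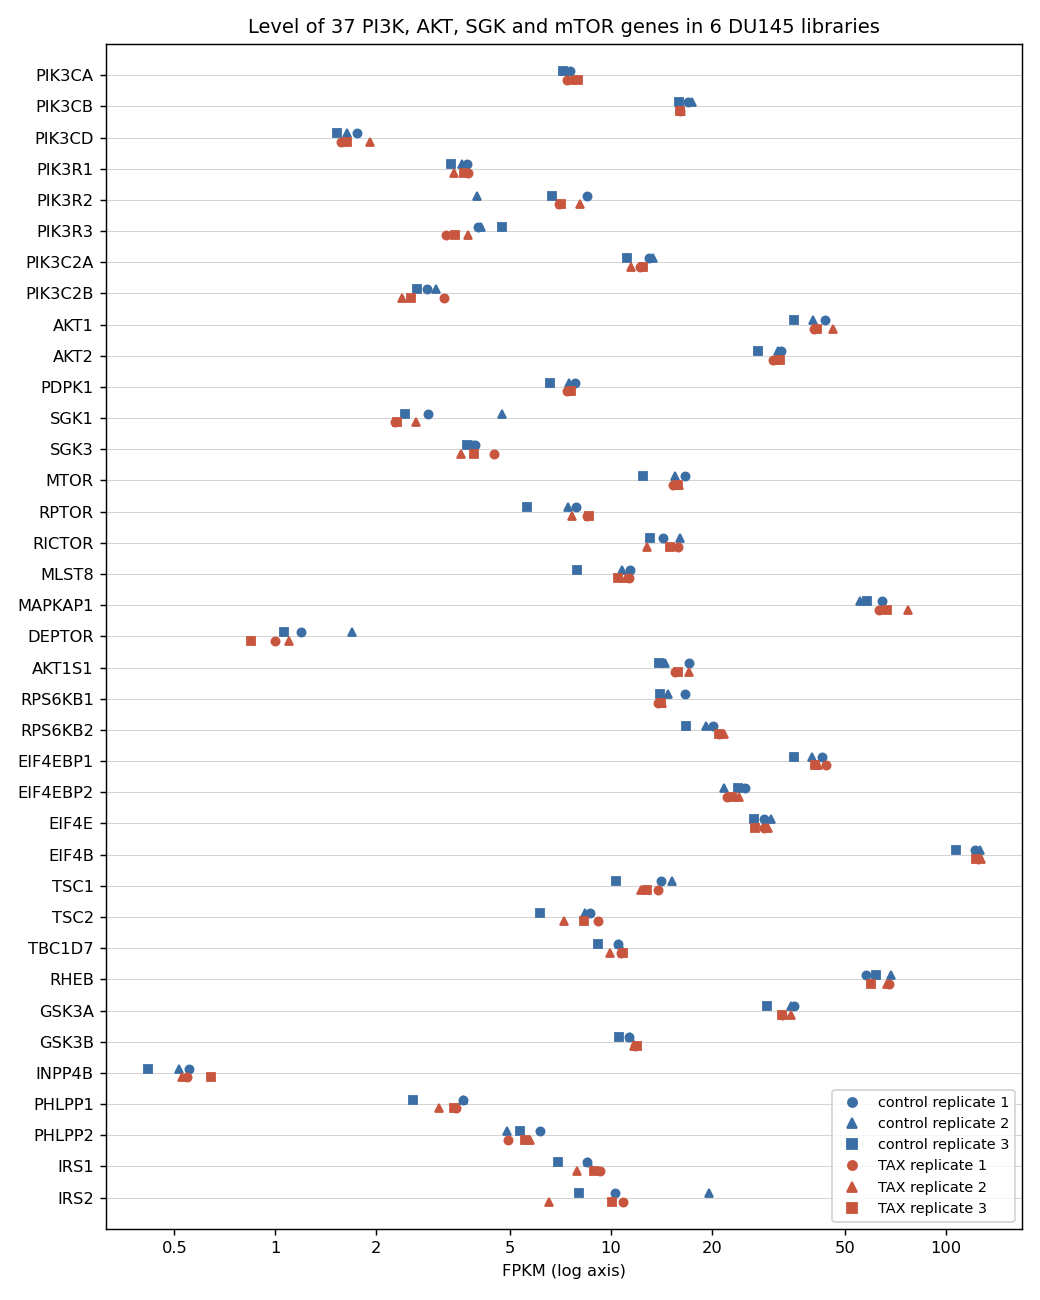
FPKM on a log axis of the 37 genes in each of the 6 libraries, ordered by role, with control libraries in blue and TAX libraries in red. Mean control levels extend from 0.495 FPKM for INPP4B to 118 FPKM for EIF4B, and the groups overlap for all genes except PIK3R3, RPS6KB2 and GSK3B.

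Among the catalytic subunits PIK3CB, which encodes p110 beta, had the highest level per length. PIK3CB was at 17.0, 17.5 and 16.0 FPKM in control replicates 1, 2 and 3 and at 16.1, 16.2 and 16.1 FPKM in TAX replicates 1, 2 and 3. PIK3CA, which encodes p110 alpha and lies on chromosome 3 from 179148114 to 179240093 (GENCODE 29, GRCh38), was at 7.58, 7.28 and 7.23 FPKM in control and at 7.41, 7.66 and 7.98 FPKM in TAX libraries. PIK3CD, the subunit p110 delta that is best known from leukocytes, was at 1.75, 1.64 and 1.53 FPKM in control and at 1.57, 1.92 and 1.63 FPKM in TAX libraries. Of the summed FPKM of these 3 genes, PIK3CB held 62.7% to 66.2% in the 6 libraries, PIK3CA 27.6% to 31.0% and PIK3CD 6.19% to 7.46%. The log2 fold changes of the 3 genes lay between -0.06 and 0.05, with adjusted p from 0.806 to 0.907, and the groups overlapped in each. Of the exon bases of PIK3CA, 35.8% are shared with KCNMB3 on the other strand. Whether the counting used strand is not given in the sources used here, so reads of that stretch can belong to either gene.

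PIK3R3, which encodes the regulatory subunit p55 gamma, had the smallest p of the members. It lies on chromosome 1 from 46040140 to 46133036 on the minus strand. Control replicates 1, 2 and 3 had 4.01, 4.09 and 4.75 FPKM, and TAX replicates 1, 2 and 3 had 3.22, 3.76 and 3.44 FPKM. The lowest control library was above the highest TAX library by less than the SD of either group. For PIK3R3 the log2 fold change, taken on log2(FPKM + 1), was -0.24 (standard error, SE, 0.09, unadjusted p = 0.0218, limma adjusted p = 0.411). In plain FPKM the TAX mean was 0.811 times the control mean. Without control replicate 2 the log2 fold change of PIK3R3 was -0.27 (adjusted p = 0.339), and its unadjusted p was above 0.05 without control replicate 3, TAX replicate 1 or TAX replicate 3. The annotated gene AL358075.4 shares 17.4% of the exon bases of PIK3R3 on the same strand. PIK3R1, which encodes p85 alpha and its shorter forms, was at 3.72, 3.59 and 3.35 FPKM in control and at 3.76, 3.40 and 3.66 FPKM in TAX libraries, or 3.56 ± 0.189 FPKM in control cells against 3.61 ± 0.189 FPKM with TAX (± SD, n = 3 per group), with overlapping libraries.

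PIK3R2, which encodes p85 beta, was at 8.47, 3.99 and 6.69 FPKM in control replicates 1, 2 and 3 and at 7.01, 8.11 and 7.09 FPKM in TAX replicates 1, 2 and 3. Control replicate 2 was the lowest of the 6 libraries and control replicate 1 the highest. For PIK3R2 the log2 fold change was 0.23 (SE 0.19, limma adjusted p = 0.685), and without control replicate 2 it was -0.02 (SE 0.11, adjusted p = 0.934). PIK3R2 lies on chromosome 19 from 18153118 to 18170540, and AC007192.1, an annotated gene on the same strand, covers 87.2% of its exon bases. The level of AC007192.1 came to 0, 3.32 and 0.267 FPKM in control replicates 1, 2 and 3 and to 0.213, 0.108 and 0.0642 FPKM in TAX replicates 1, 2 and 3. The library with the lowest PIK3R2 thus had the highest AC007192.1. The sum of both was 8.47, 7.32 and 6.96 FPKM in control and 7.22, 8.22 and 7.16 FPKM in TAX libraries, a mean of 7.58 ± 0.791 and 7.53 ± 0.596 FPKM (± SD, n = 3 per group; two-sided p = 0.9 by exact permutation). This sum adds values divided by different transcript lengths. AC007192.1 runs on to 18178117, past the end of PIK3R2, so the sum can hold reads from outside PIK3R2. The part of the annotation in the level of PIK3R2 was not tested further.

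**Figure D3:**
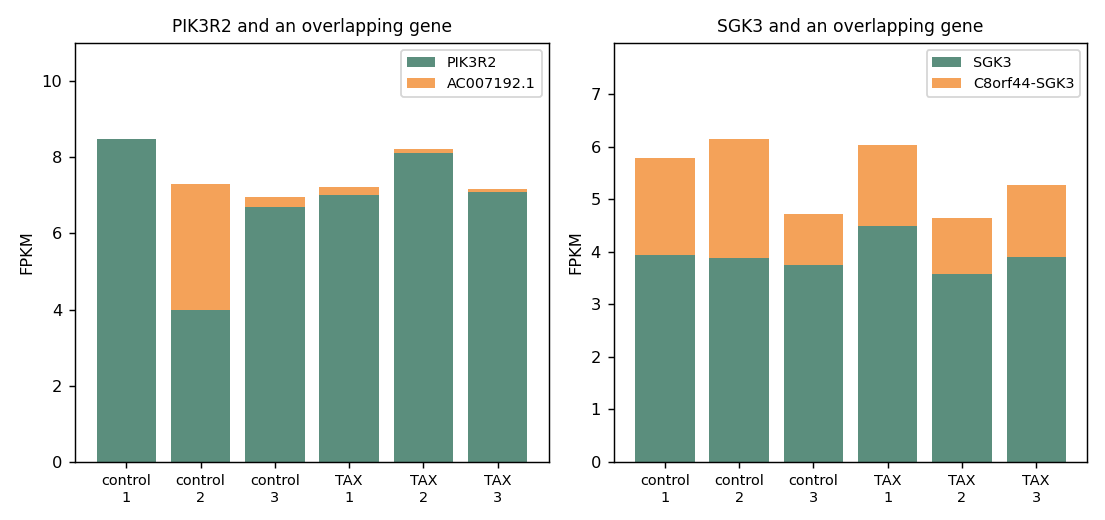
FPKM of PIK3R2 stacked with AC007192.1 (left) and of SGK3 stacked with C8orf44-SGK3 (right) in each of the 6 libraries, without error bars since each bar is 1 library. In control replicate 2 the 3.99 FPKM of PIK3R2 stand beside 3.32 FPKM of AC007192.1, while in the other libraries AC007192.1 is at 0.267 FPKM or less.

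The class II kinases make other phosphoinositides during membrane traffic. PIK3C2A was at 13, 13.4 and 11.2 FPKM in control and at 12.2, 11.5 and 12.5 FPKM in TAX libraries. PIK3C2B was at 2.84, 3.02 and 2.64 FPKM in control and at 3.18, 2.39 and 2.53 FPKM in TAX libraries. The groups overlapped in both genes. Both log2 fold changes, -0.05 and -0.06, were smaller than their standard errors of 0.09 and 0.10.

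AKT1 and AKT2 encode the AKT kinases, and the study also measured AKT1 by real-time qPCR. The primers of that assay are shown to tell which part of the mRNA it reads, all in lower case because neither crosses an exon junction:
AKT1 forward: tactctttccagacccacgacc
AKT1 reverse: cccggtacaccacgttcttct
Both match GENCODE 29 transcripts of AKT1 without mismatch, in exons 7 and 8 of 13 on chromosome 14 (chr14:104773950-104773971 and chr14:104773463-104773483, GRCh38), and enclose a product of 178 bp. In the RNA sequencing AKT1 was at 43.5, 40.0 and 35.2 FPKM in control replicates 1, 2 and 3 and at 40.3, 45.9 and 41.3 FPKM in TAX replicates 1, 2 and 3. The groups overlapped, and control replicate 3 was the lowest library. The log2 fold change of AKT1 was 0.10 (SE 0.10, limma adjusted p = 0.725), with a 95% interval from 0.927-fold to 1.25-fold. AKT2 was at 32.3, 31.5 and 27.5 FPKM in control and at 30.5, 31.0 and 32 FPKM in TAX libraries, a log2 fold change of 0.04 (SE 0.08, limma adjusted p = 0.896). PDPK1, the kinase that activates AKT, SGK and S6 kinases, was at 7.32 ± 0.637 FPKM in control cells against 7.50 ± 0.0932 FPKM with TAX (± SD, n = 3 per group).

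IRS2 and SGK1 had the largest coefficients of variation over the controls, 48.8% and 36.6%. SGK1 encodes a kinase related to AKT whose mRNA is known to respond quickly to serum, hormones and stress, and it lies on chromosome 6 from 134169246 to 134318112. SGK1 was at 2.85, 4.73 and 2.43 FPKM in control replicates 1, 2 and 3 and at 2.28, 2.63 and 2.31 FPKM in TAX replicates 1, 2 and 3. Control replicate 2 stood above the other 5 libraries, which lay between 2.28 and 2.85 FPKM. For SGK1 the log2 fold change was -0.31 (SE 0.16, unadjusted p = 0.0760, limma adjusted p = 0.535), and without control replicate 2 it was -0.10 (SE 0.10, adjusted p = 0.673). The TAX mean minus control replicates 1, 2 and 3 alone gave -0.18, -0.75 and -0.01 on the log2 scale.

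IRS2, an adaptor between the insulin and IGF receptors and PI3K, lies on chromosome 13 from 109752698 to 109786568. It was at 10.3, 19.7 and 8.06 FPKM in control replicates 1, 2 and 3 and at 10.9, 6.53 and 10.1 FPKM in TAX replicates 1, 2 and 3. Here too control replicate 2 was the highest library, and TAX replicate 2 was the lowest. The log2 fold change of IRS2 was -0.36 (SE 0.27, limma adjusted p = 0.664), with a 95% interval from 0.518-fold to 1.17-fold, and without control replicate 2 it was -0.02 (SE 0.18, adjusted p = 0.973). Against control replicates 1, 2 and 3 alone the TAX mean differed by -0.17, -1.05 and 0.14 on the log2 scale. IRS1, the related adaptor, was at 8.49, 8.53 and 6.98 FPKM in control and at 9.29, 7.91 and 8.89 FPKM in TAX libraries, and its control replicate 2 did not stand apart.

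The promoters of SGK1 and IRS2 are shown because these genes were highest in the same control library, a choice made after their values were seen. Each run is the 250 bases before a RefSeq start (GRCh38.p14, minus strand, chr6:134174867-134175116 and chr13:109786584-109786833), read 5′ to 3′. Of the 3 SGK1 starts in RefSeq, the one whose first 30 bases occur in the most GENCODE transcripts was taken, at 4 of 30. The first 30 bases after the IRS2 start occur in 0 of 1 GENCODE transcripts, where IRS2 starts at 109786568. Capitals mark the GC box GGGCGG and the letters TATAA on either strand, and matches may overlap:
SGK1 promoter: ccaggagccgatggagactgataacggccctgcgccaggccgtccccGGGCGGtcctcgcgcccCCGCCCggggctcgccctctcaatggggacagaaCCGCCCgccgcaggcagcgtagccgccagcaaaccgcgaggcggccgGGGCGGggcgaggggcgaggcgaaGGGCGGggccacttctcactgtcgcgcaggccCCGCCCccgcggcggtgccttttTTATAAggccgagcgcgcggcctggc
IRS2 promoter: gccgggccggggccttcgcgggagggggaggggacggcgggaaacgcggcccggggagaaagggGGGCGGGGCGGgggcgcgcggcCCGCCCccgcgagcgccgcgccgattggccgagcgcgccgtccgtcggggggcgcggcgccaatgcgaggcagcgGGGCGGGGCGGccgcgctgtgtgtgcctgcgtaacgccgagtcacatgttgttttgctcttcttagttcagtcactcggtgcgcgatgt
The GC box occurs 6 times in the SGK1 run and 5 times in the IRS2 run, and 42.6% of 35116 RefSeq promoter windows of this length hold at least 1. TATAA occurs in the SGK1 run, as in 18.9% of the windows. The GC content is 76% and 76.4%, and 8.69% of the windows reach 76%. The FOXO core letters GTAAACA and the cyclic AMP response letters TGACGTCA, searched on both strands, are in neither run, while 2.98% and 1.65% of the windows hold them.

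SGK3, a kinase that binds endosomal lipids, was at 3.93, 3.88 and 3.74 FPKM in control and at 4.49, 3.58 and 3.90 FPKM in TAX libraries, with a log2 fold change of 0.04 (SE 0.09, limma adjusted p = 0.896). The read-through gene C8orf44-SGK3, listed apart, was at 1.85, 2.26 and 0.985 FPKM in control and at 1.55, 1.07 and 1.38 FPKM in TAX libraries. In RefSeq it ends at the same base of chromosome 8 as SGK3, 66862022, so reads of the shared exons can be assigned to either name. The sum of both was 5.55 ± 0.736 FPKM in control cells against 5.33 ± 0.695 FPKM with TAX (± SD, n = 3 per group, two-sided p = 0.7 by exact permutation).

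Of the mTOR complex genes, 6 of 7 had a log2 fold change above 0, beside 69.1% of all genes, and 0 had an unadjusted p under 0.05, beside 10.1%. The signs of MTOR, RICTOR and MLST8 turned in some fits with a single library left out. MTOR, the kinase of both complexes, was at 16.6, 15.5 and 12.5 FPKM in control and at 15.3, 16.0 and 15.9 FPKM in TAX libraries. RPTOR, which brings substrates to mTORC1, was at 7.89, 7.47 and 5.62 FPKM in control and at 8.48, 7.67 and 8.61 FPKM in TAX libraries. Control replicate 3 held the lowest value of both genes, and the TAX mean of RPTOR lay 0.48 above that library alone but 0.06 and 0.13 above control replicates 1 and 2 on the log2 scale. MLST8, a subunit of both complexes, was at 11.4, 10.8 and 7.96 FPKM in control and at 11.3, 11.1 and 10.5 FPKM in TAX libraries, again with control replicate 3 lowest. RICTOR, the scaffold of mTORC2, was at 14.3, 16.1 and 13.1 FPKM in control and at 15.9, 12.8 and 15.0 FPKM in TAX libraries, a log2 fold change of 0.00 with a standard error of 0.10.

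MAPKAP1, which encodes the mTORC2 subunit SIN1, was at 64.3, 55.3 and 58.0 FPKM in control and at 63.0, 77.2 and 66.5 FPKM in TAX libraries. For MAPKAP1 the log2 fold change was 0.21 (SE 0.10, unadjusted p = 0.0553, limma adjusted p = 0.494), with TAX replicate 2 highest and control replicate 1 above TAX replicate 1. AKT1S1, which encodes the mTORC1 inhibitor PRAS40, was at 15.2 ± 1.72 FPKM in control cells against 16.2 ± 0.751 FPKM with TAX (± SD, n = 3 per group). DEPTOR, an inhibitor of both complexes, was at 1.19, 1.69 and 1.06 FPKM in control and at 1.00, 1.10 and 0.848 FPKM in TAX libraries. DEPTOR was a further gene with its highest value in control replicate 2, and its log2 fold change of -0.22 (SE 0.11, unadjusted p = 0.0755, limma adjusted p = 0.535) was -0.10 without that library (adjusted p = 0.655).

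The S6 kinases phosphorylate ribosomal protein S6 and other regulators of translation, and the study measured S6K1, the product of RPS6KB1, by real-time qPCR. The primers of RPS6KB1 are shown for the same reason as those of AKT1:
RPS6KB1 forward: tccgatcacctcgaagatttattg
RPS6KB1 reverse: catctgctctatgccacttgtttc
They lie in exons 15 and 16 of 16 on chromosome 17 (chr17:59945473-59945496 and chr17:59946639-59946662), with a product of 158 bp. RPS6KB1 was at 16.6, 14.8 and 14 FPKM in control replicates 1, 2 and 3 and at 13.8, 14.2 and 14.1 FPKM in TAX replicates 1, 2 and 3. Control replicate 3 lay among the TAX libraries. The log2 fold change of RPS6KB1 was -0.10 (SE 0.08, limma adjusted p = 0.695), with a 95% interval from 0.821-fold to 1.06-fold. RPS6KB2, which encodes S6K2 and lies on chromosome 11 from 67428460 to 67435408, was at 20.2, 19.2 and 16.8 FPKM in control and at 21.0, 21.8 and 21.1 FPKM in TAX libraries. All TAX values of RPS6KB2 were above the control values, but the log2 fold change of 0.18 (SE 0.09, unadjusted p = 0.0654, limma adjusted p = 0.513) did not pass.

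EIF4EBP1, which encodes the translation repressor 4E-BP1 and was also measured by qPCR in the study, was at 42.6, 39.8 and 35.1 FPKM in control and at 43.9, 41.6 and 40.8 FPKM in TAX libraries. The groups overlapped, and the log2 fold change was 0.11 (SE 0.09, limma adjusted p = 0.699) with a 95% interval from 0.938-fold to 1.23-fold. Its paralog EIF4EBP2 was at 25.2, 21.8 and 23.9 FPKM in control and at 22.2, 24.1 and 23.0 FPKM in TAX libraries. EIF4E, the cap-binding protein that both repress, had a log2 fold change of less than 0.01 in size, with 28.4 ± 1.70 FPKM in control cells against 28.4 ± 1.34 FPKM with TAX (± SD, n = 3 per group). EIF4B, a cofactor of the eIF4A helicase and a substrate of the S6 kinases, was the most abundant member at 118 ± 9.60 and 125 ± 2.21 FPKM (± SD, n = 3 per group).

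The TSC complex, which switches RHEB off, is made of the products of TSC1, TSC2 and TBC1D7. TSC1 was at 14.1, 15.2 and 10.4 FPKM in control and at 13.8, 12.3 and 12.8 FPKM in TAX libraries, and TSC2 was at 8.67, 8.37 and 6.17 FPKM and at 9.16, 7.25 and 8.30 FPKM. Both were lowest in control replicate 3. TBC1D7 was at 10.1 ± 0.802 and 10.5 ± 0.487 FPKM, and RHEB, the GTPase that activates mTORC1, at 62.7 ± 5.26 and 64.6 ± 4.34 FPKM in control and TAX-treated cells (± SD, n = 3 per group). Log2 fold changes of the 4 genes lay between -0.01 and 0.09, with adjusted p from 0.825 to 0.973.

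GSK3A and GSK3B encode the GSK3 kinases, which AKT inhibits. GSK3B was at 11.3, 11.4 and 10.6 FPKM in control and at 11.8, 11.7 and 12 FPKM in TAX libraries, so that all TAX values were above the controls, with a log2 fold change of 0.09 (SE 0.07, limma adjusted p = 0.707). GSK3A was at 35.2, 34.4 and 29.3 FPKM in control and at 32.4, 34.4 and 32.4 FPKM in TAX libraries, with overlap. PHLPP1 and PHLPP2 encode phosphatases that act on AKT. PHLPP1 was at 3.63, 3.62 and 2.57 FPKM in control and at 3.46, 3.08 and 3.42 FPKM in TAX libraries, and PHLPP2 was at 6.17, 4.90 and 5.35 FPKM and at 4.94, 5.75 and 5.57 FPKM. Their log2 fold changes, 0.03 and -0.01, were smaller than the SE of 0.11 and 0.10. INPP4B, a lipid phosphatase that acts downstream of PI3K, was under the filter, at 0.551, 0.516 and 0.417 FPKM in control and at 0.545, 0.526 and 0.641 FPKM in TAX libraries. Added to the fit, INPP4B came to a log2 fold change of 0.07 (SE 0.08, limma adjusted p = 0.781).

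Since FPKM is divided by length, related genes can be compared within a library, and 14 pairs were compared over the 6 libraries. In 11 pairs the same gene was higher in all 6 libraries (two-sided p = 0.0312 by exact sign-flip permutation, which is the least 6 libraries can give, and adjusted p = 0.0398 over the 14 pairs). This p tells only how steadily the order repeats over these libraries. Reads that may be shared with overlapping genes, as for PIK3CA and KCNMB3, were not taken out. PIK3CA was on average 0.457 times PIK3CB and 4.51 times PIK3CD, and PIK3R1 was 0.533 times PIK3R2, taken without AC007192.1. PIK3C2A was 4.46 times PIK3C2B, and AKT1 was 1.33 times AKT2. RPTOR, which defines mTORC1, was 0.522 times RICTOR, which defines mTORC2. RPS6KB1 was 0.731 times RPS6KB2, EIF4EBP1 1.74 times EIF4EBP2, TSC1 1.64 times TSC2, GSK3A 2.87 times GSK3B and PHLPP1 0.603 times PHLPP2. The order did not hold in every library for PIK3R1 and PIK3R3 (adjusted p = 0.375 by the exact sign-flip test), SGK1 and SGK3 (0.0729) and IRS1 and IRS2 (0.202). SGK1 was above SGK3 in control replicate 2 alone, at 4.73 against 3.88 FPKM, but below the sum of SGK3 and C8orf44-SGK3 in all 6 libraries, with 6.14 FPKM for that sum in control replicate 2. IRS1 was above IRS2 in TAX replicate 2 alone.

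**Figure D4:**
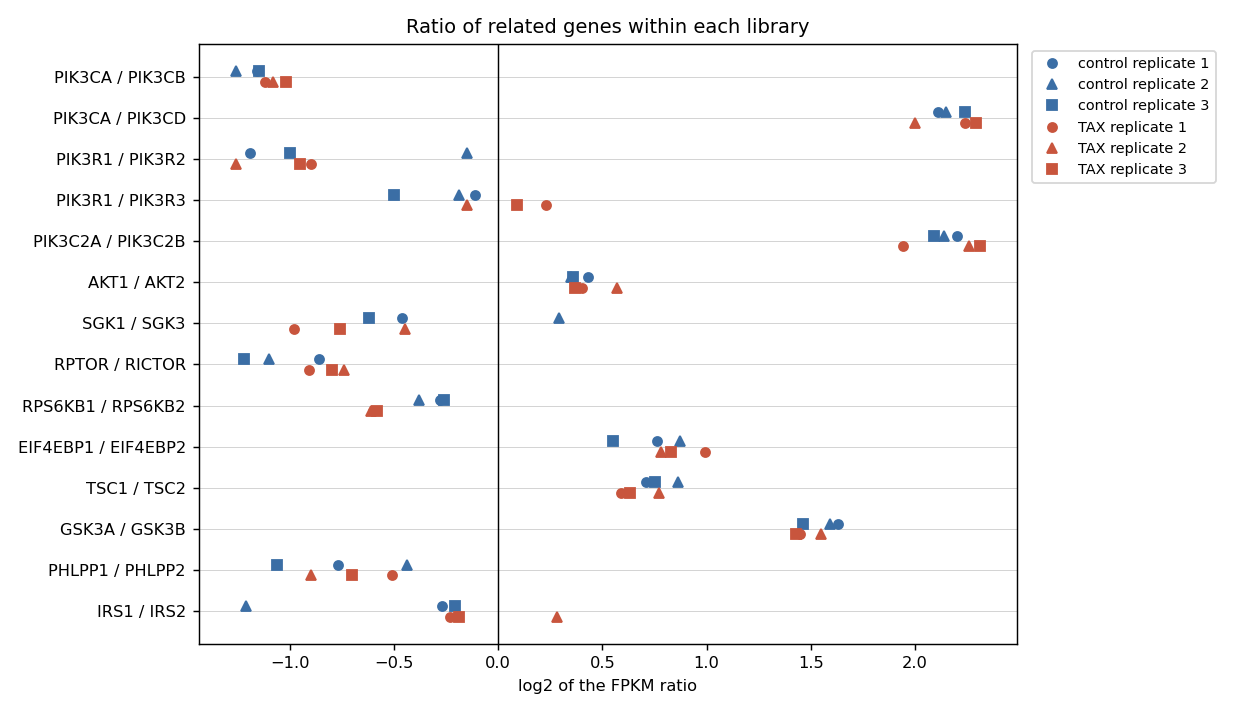
Log2 of the FPKM ratio of 14 gene pairs in each of the 6 libraries, with controls in blue and TAX libraries in red; 0 marks equal levels. The RPS6KB1 / RPS6KB2 ratios of the TAX libraries, -0.61 to -0.58, lie apart from those of the controls, -0.38 to -0.26, and control replicate 2 stands apart for PIK3R1 / PIK3R2, SGK1 / SGK3 and IRS1 / IRS2.

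The ratio itself was then compared between TAX-treated and control cells. The groups did not overlap for 2 of the 14 pairs. With no difference, 3 against 3 libraries separate with a probability of 0.1 per pair, so this count is not read as a result. For RPS6KB1 to RPS6KB2, control replicates 1, 2 and 3 had log2 ratios of -0.28, -0.38 and -0.26 and TAX replicates 1, 2 and 3 had -0.60, -0.61 and -0.58, so that S6K1 mRNA was lower relative to S6K2 mRNA in every TAX library. The difference of -0.29 exceeded the SD within the groups, 0.06 in control and 0.02 in TAX-treated cells (two-sided exact permutation p = 0.1, the smallest that 3 against 3 libraries allow, adjusted p = 0.467 over the 14 pairs). The log2 ratio of PIK3CA to PIK3CB was -1.16, -1.26 and -1.15 in control and -1.12, -1.08 and -1.02 in TAX libraries, a difference of 0.12 with the same exact p of 0.1 and adjusted p of 0.467. A ratio within a library is free of its scaling, and it shows unequal levels of both genes without telling which of them differed. Since this exact test cannot give a p under 0.1 with 3 against 3 libraries, its count of 0 pairs under 0.05 follows from the test and says nothing about the ratios.

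Control replicate 2 was examined alone for all members. Relative to the mean of control replicates 1 and 3, IRS2 was 2.15 times and SGK1 1.79 times as high in FPKM, while PIK3R2 was 0.527 times as high. On the log2(FPKM + 1) scale these differences were 1.03, 0.66 and -0.77, and among all 12359 tested genes they ranked at percentiles 99.8, 99.3 and 0.186. A difference of more than 1.5-fold on this scale was found for these 3 of 36 members (8.33%) and for 1.28% of all genes. These values take PIK3R2 alone. Summed with AC007192.1 it was at 7.32 FPKM in control replicate 2, between 8.47 and 6.96 FPKM in control replicates 1 and 3. That sum can hold reads from outside PIK3R2. DEPTOR followed with 0.34 (percentile 95.5). The library held the highest of the 6 values for 9 members (25%) beside 19.4% of all genes. Without control replicate 2 the members had 25 log2 fold changes above 0 and 11 below, 1 unadjusted p under 0.05 (PIK3R3) and 0 adjusted p under 0.05. The count at the unadjusted threshold was then 2.78% of the members against 13.3% of all genes.

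**Figure D5:**
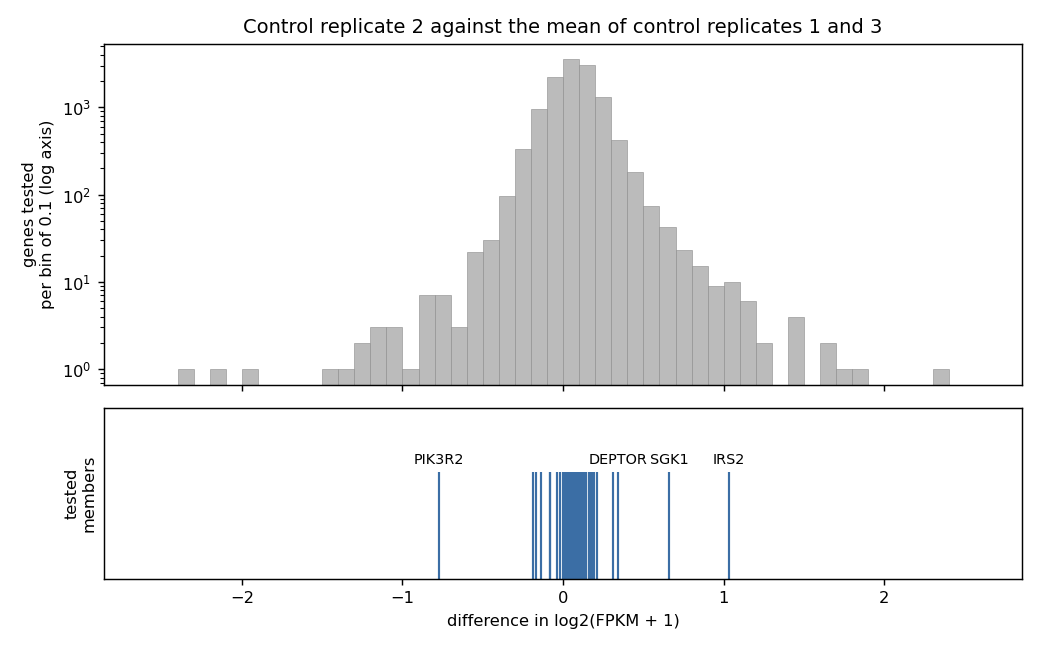
Difference in log2(FPKM + 1) between control replicate 2 and the mean of control replicates 1 and 3. The upper panel counts the 12359 tested genes per bin of 0.1 on a log axis, and each line in the lower panel is 1 of the 36 tested members, with IRS2 at 1.03, SGK1 at 0.66, DEPTOR at 0.34 and PIK3R2 at -0.77.

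A list of 61 other genes of the pathway, chosen by role, was read from the same fit. It holds further PI3K subunits, lipid phosphatases, partners of mTOR, the Rag and Ragulator proteins, the GATOR complexes with their amino acid sensors, and stress-induced inhibitors. Of the 52 that were tested, 41 (78.8%) had a log2 fold change above 0 and 11 below, beside 69.1% of all genes above 0. That split was 34 and 18 after quantile normalization, 31 and 21 after centring on the library median, and 28 and 24 without control replicate 3. Of all genes, 51.6%, 48.7% and 52.1% were above 0 in these 3 fits. An adjusted p under 0.05 was found for 0, and 6 (11.5%) had an unadjusted p under 0.05, 3 higher and 3 lower, beside 10.1% of all genes. Without control replicate 2 the unadjusted count was 14 of 52 (26.9%), where 13.3% of all genes passed. The groups did not overlap for 6 higher and 3 lower genes of the 52, beside 14.6% and 3.34% of all genes. EIF4A1, the helicase of the cap-binding complex, had the smallest p of the list and was at 419, 365 and 336 FPKM in control and 443, 517 and 482 FPKM in TAX libraries (log2 fold change 0.37, unadjusted p = 0.0066, adjusted p = 0.267 from limma). MIOS, a subunit of GATOR2, was at 9.87, 9.72 and 8.99 FPKM in control and 11.9, 10.9 and 11.4 FPKM in TAX libraries (adjusted p = 0.350). SLC38A9, the lysosomal arginine sensor, was at 9.52, 9.72 and 9.93 FPKM in control and 8.70, 8.21 and 8.06 FPKM in TAX libraries (adjusted p = 0.411). The groups did not overlap in these 3 genes, nor in DDIT4L, SEH1L and SESN3, while they did in GAB1. DDIT4L, an mTORC1 inhibitor, and the adaptor GAB1 had log2 fold changes of -0.31 and -0.24 (adjusted p = 0.429 and 0.445), while SEH1L of GATOR2 and the sestrin SESN3 had unadjusted p of 0.0734 and 0.0915.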

How the data were processed

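RNA of 6 DU145 libraries, 3 control and 3 TAX, was sequenced. The authors deposited 1 table per library, without pooling, whose values were taken as FPKM because they are decimals with sums that differ and 3130 identifiers carry StringTie's MSTRG prefix; TPM was not wholly excluded. The submitters' processing notes name HISAT2 2.2.0, StringTie 2.1.2 and GRCh38; annotation and filters are not given in the sources used here. Ratios of low values between control replicates 1 and 3 showed no steps that single reads would leave (332 genes under 0.03 FPKM in both, at most 5.72% of log2 ratios in a bin of 0.1), so depth is unknown and no counting interval is given. The deposited FPKM were turned into log2(FPKM + 1), genes reaching 1 FPKM in 3 or more libraries were kept (12359), and a linear model was run per gene (R 4.3.3, limma 3.58.1, eBayes with trend, no covariate, Benjamini-Hochberg adjustment), a script tested on simulated data. The log2 scale with a pseudocount of 1 understates changes of low genes. Single values were compared by exact two-sided permutation tests over 20 assignments, gene pairs by sign flips over 64. Positions and exon overlaps are from GENCODE 29, in which all 37 symbols matched 1 gene each, and promoters from RefSeq. The members, lists and tests were chosen with earlier results of these data known. All members are named; values in every library were given for those with an unadjusted p under 0.05, without overlap, measured by qPCR or drawn in the study's heatmap, in the pairs described or among the 4 largest rises and falls, and of the other pathway genes those among the 8 with the smallest p are named, except for an item that is not reported here. Alternatives were another pseudocount, other filters and scalings, no trend, a replicate block, each library left out, and each control alone.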

Additional observations from a re-analysis of the deposited data

How the results depend on the processing

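An adjusted p under 0.05 was found in 0 of 470 fits of single members over 13 alternatives, with a smallest adjusted p of 0.319, and the median of the members stayed between -0.0214 and 0.0691. Of the tested members, 16 kept 1 sign in all alternatives and 20 did not. Over all genes, the counts of 39 higher and 20 lower calls became 25 and 12 with a filter of 0.1 FPKM, 0 and 1 with no filter, 13 and 13 with the replicate block, 9 to 28 and 8 to 15 when single libraries were left out, and 48 and 50 lower calls with quantile normalization and centring on the library median. Members with an unadjusted p under 0.05 numbered 3 after quantile normalization (PIK3CB, PIK3R3, RPS6KB1), or 8.33% against 11.8% of all genes. They numbered 4 after centring (PIK3R3, SGK1, DEPTOR, RPS6KB1), or 11.1% against 12.1%, and 2 with the replicate block (PIK3R3, SGK1), or 5.56% against 7.86%. When single libraries were left out they numbered 0 to 5. There were 5 without control replicate 1 (PIK3R2, PIK3R3, RPTOR, MAPKAP1, RPS6KB2), or 13.9% against 10.8% of all genes. There were 3 without control replicate 3 (SGK1, DEPTOR, TSC1), or 8.33% against 11.3%, and 0 without TAX replicate 3, against 6.3%. Of the 52 other pathway genes tested, 3 had an unadjusted p under 0.05 with the block, where 7.86% of all genes did. When single libraries were left out they numbered 3 to 14 of 52, beside 6.3% to 13.3% of all genes. Pairs without overlap numbered 2 to 7 and pairs in 1 order in every library 11 to 12 when single libraries were left out. With no difference, 3 against 2 libraries separate more often than 3 against 3, so the count without overlap is not read as a result. Of the pairs in 1 order 0 then had an adjusted p under 0.05, since 5 libraries allow no exact p under 0.0625. The cause of these differences was not tested. Same-numbered libraries had correlations of -0.12, -0.33 and -0.17 between their deviations from the group means. Libraries with different numbers had -0.17 to 0.29 (0.28 for control 2 with TAX 1 and 0.29 for control 3 with TAX 2). Of the 6 libraries 0 correlated best with its own number, which gave no sign of pairs by number. Whether same-numbered samples shared a preparation was not tested.

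Centring turned the log2 fold change of PIK3CA to -0.00365, PIK3CD -0.02, PIK3R1 -0.04, AKT2 -0.02, PDPK1 -0.02, SGK3 -0.02, RICTOR -0.05, TBC1D7 -0.00334, RHEB -0.02, GSK3A -0.05 and PHLPP1 -0.03. Quantile normalization turned that of PIK3R1 to -0.01, AKT2 -0.03, PDPK1 -0.02, RICTOR -0.06, TBC1D7 -0.00493, RHEB -0.03 and GSK3A -0.06. When single libraries were left out, the log2 fold change ranged from -0.02 to 0.07 for PIK3CD, -0.02 to 0.05 for PIK3R1, -0.02 to 0.44 for PIK3R2, -0.15 to 0.00343 for PIK3C2B, -0.03 to 0.08 for AKT2 and PDPK1, -0.03 to 0.10 for SGK3, -0.03 to 0.16 for MTOR, -0.06 to 0.09 for RICTOR, -0.01 to 0.22 for MLST8, -0.08 to 0.02 for EIF4EBP2, -0.05 to 0.04 for EIF4E, -0.17 to 0.09 for TSC1, -0.05 to 0.17 for TSC2, -0.01 to 0.09 for TBC1D7, -0.01 to 0.10 for RHEB, -0.07 to 0.06 for GSK3A, -0.10 to 0.09 for PHLPP1 and -0.07 to 0.07 for PHLPP2. Unknown read totals and 3 libraries per group limit how small a difference could be seen.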
